A study of Mus musculus with 30 samples.

Results

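Tsc22d3, Dusp1, Ddit4, Sesn1, Cdkn1a and Errfi1 are textbook targets of the glucocorticoid receptor, and the chromatin around them was measured by ATAC-seq in the mouse ventral hippocampus. They were taken as 6 receptor targets without a clear rise at 45 min of acute restraint, so the change at 45 min chose them: its values and calls are given as a description and support nothing about them. Their chromatin comprised every region of the deposited peak table that overlapped the RefSeq body of one of these genes extended by 10 kb on both sides (build GRCm38). This gave 78 of 257149 peaks: 4 at Tsc22d3, 7 at Dusp1, 5 at Ddit4, 43 at Sesn1, 4 at Cdkn1a and 15 at Errfi1. All 78 passed the filter on low counts. The question was how open these genes already were in the home cage, before acute restraint.

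The glucocorticoid receptor is a nuclear hormone receptor that moves to the nucleus when corticosterone binds it and attaches to DNA at glucocorticoid response elements. Its classic targets include brakes on signalling and growth that are switched on during stress. Tsc22d3 encodes GILZ, a leucine zipper protein that restrains inflammatory transcription factors, and Dusp1 encodes a phosphatase that switches off MAP kinases. Ddit4 (REDD1) and Sesn1 (sestrin 1) hold back the growth kinase complex mTORC1. Cdkn1a (p21) inhibits cyclin-dependent kinases, and Errfi1 (MIG6) inhibits receptors of the ErbB family. ATAC-seq reads openness by letting a transposase cut DNA that is not packed away, so a region with a high level was more accessible, which need not mean that its gene was transcribed.

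The study held 30 mice in 4 groups by history and acute stress. Control mice had been handled, and the others were restrained in a tube daily for 10 days. All were then housed singly and collected either without a further stress (home cage, called 0 min) or 45 min into a new restraint. There were 8 handled mice at 0 min (4 females, 4 males), 7 handled mice at 45 min (3 females, 4 males), 8 chronically restrained mice at 0 min (4 females, 4 males) and 7 chronically restrained mice at 45 min (4 females, 3 males). No strain, age or transgene is given in the labels. Total counts ran from 26104576 to 55294838 per library, and each of 4 batches held all groups. Among markers, the start-site peaks of the excitatory neuron genes Slc17a7, Neurod2 and Neurod6 were at the 74.8th, 48.8th and 45.2nd percentile of such peaks, those of the inhibitory neuron genes Gad1, Slc32a1 and Gad2 at the 23.9th, 13.5th and 7.81st, and the heart gene Myh6 at the 0.431st, near endothelial Flt1 at the 0.538th. The hippocampal field genes Grik4, Wfs1 and Prox1 were at the 44.65th, 37.7th and 11.8th percentile. Oligodendrocyte Mog and Mobp were at the 25.2nd and 21.7th, and astrocyte Aldh1l1 and Slc1a3 at the 23.2nd and 6.0th. Choroid plexus Kl was at the 10.6th, microglial Cx3cr1 at the 6.29th and endothelial Cldn5 at the 3.2nd. No peak was at the starts of Alb or Cd3e, nor at those of the brain genes Gja1, P2ry12 and Zbtb20. One library stood apart in where its counts fell: animal 45, from the handled home-cage group (female). Peaks that overlapped the 1 kb on either side of gene ends held 42.15% of its counts. The highest share was 39.62% in the rest of its group and 40.25% in the other groups (handled, 45 min). The cause was not tested. Animal 45 was the highest library of its group at the start-site peak of all 6 genes, and values without it are given beside the acute, chronic and interaction results.

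The DNA just before the gene starts was read for letter matches to known control elements. RefSeq (GRCm38.p6) listed 11 starts for the 6 genes, and the 250 bases before each were searched on both strands. The sequences shown are those of the genes whose starts held a response motif or that had starts inside and outside a peak. All are written 5′ to 3′ on the strand of the gene: Dusp1 is chr17:26508473-26508722 (minus strand), the inner Errfi1 start chr4:150854820-150855069 (plus), the upstream and inner Cdkn1a starts chr17:29090729-29090978 and chr17:29093519-29093768 (plus), and the upstream and inner Tsc22d3 starts chrX:140600523-140600772 and chrX:140542669-140542918 (minus). Capitals mark the cyclic AMP response element (TGACGTCA), the p53 paired core (CATGNNNNNNCATG), the glucocorticoid hexamer (AGAACA or its reverse complement), the TATA box (TATAAA) and the GC box (GGGCGG or its reverse complement).
Dusp1: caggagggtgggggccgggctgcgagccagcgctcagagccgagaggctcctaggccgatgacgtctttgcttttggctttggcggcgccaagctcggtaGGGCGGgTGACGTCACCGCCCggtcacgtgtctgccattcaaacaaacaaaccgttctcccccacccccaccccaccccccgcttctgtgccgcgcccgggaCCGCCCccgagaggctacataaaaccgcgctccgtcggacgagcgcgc
Errfi1 inner start: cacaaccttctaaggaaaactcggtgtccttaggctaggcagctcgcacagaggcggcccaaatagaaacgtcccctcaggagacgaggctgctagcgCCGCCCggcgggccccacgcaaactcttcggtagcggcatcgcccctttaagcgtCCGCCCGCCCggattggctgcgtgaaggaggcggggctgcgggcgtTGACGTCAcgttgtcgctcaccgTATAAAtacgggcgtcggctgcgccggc
Cdkn1a upstream start: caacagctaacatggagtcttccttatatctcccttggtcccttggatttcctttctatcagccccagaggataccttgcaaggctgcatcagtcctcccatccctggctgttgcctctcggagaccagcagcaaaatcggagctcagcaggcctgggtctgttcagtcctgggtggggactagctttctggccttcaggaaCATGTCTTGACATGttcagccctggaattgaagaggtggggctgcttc
Cdkn1a inner start: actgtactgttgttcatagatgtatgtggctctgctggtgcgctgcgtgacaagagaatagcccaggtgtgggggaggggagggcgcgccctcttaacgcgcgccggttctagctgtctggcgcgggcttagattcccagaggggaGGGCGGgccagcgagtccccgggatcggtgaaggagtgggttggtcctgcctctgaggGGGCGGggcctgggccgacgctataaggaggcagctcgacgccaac
Tsc22d3 upstream start: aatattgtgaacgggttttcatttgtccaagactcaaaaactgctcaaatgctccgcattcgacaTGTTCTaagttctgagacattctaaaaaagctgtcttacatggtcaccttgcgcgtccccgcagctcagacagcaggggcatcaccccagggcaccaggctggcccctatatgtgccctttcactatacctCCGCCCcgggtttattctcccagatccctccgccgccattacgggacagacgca
Tsc22d3 inner start: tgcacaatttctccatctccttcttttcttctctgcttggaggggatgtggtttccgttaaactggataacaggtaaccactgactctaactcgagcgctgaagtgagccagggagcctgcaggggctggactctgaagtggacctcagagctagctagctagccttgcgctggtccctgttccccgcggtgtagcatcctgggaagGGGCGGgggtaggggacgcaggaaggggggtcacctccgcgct

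A full palindromic glucocorticoid response element (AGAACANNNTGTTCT) was found before 0 of the 11 starts, and before 0.00913% of the 32851 starts in the RefSeq table. Its hexamer, which is contained in the palindrome, was found before 1 member start, the upstream start of Tsc22d3 (bases -185 to -180 from the start), and before 16.1% of all starts. The cyclic AMP response element, bound by CREB, was present at 2 member starts, Dusp1 (bases -143 to -136) and the inner start of Errfi1 (bases -51 to -44), against 1.55% of all starts. The p53 paired core lay at the upstream start of Cdkn1a (bases -48 to -35), with 0.49% of all starts holding one. A TATA box was seen only at the inner Errfi1 start (bases -28 to -23; 12.4% of all starts), and a GC box at 8 of 11 member starts (32.7% of all starts). These are letter matches in 250-base windows and say nothing of whether a factor was bound. Elements outside the windows or with other letters were not searched for. The palindrome is so rare before starts that 0 of 11 shows nothing particular to these genes.

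Start-site openness in the home cage was read from the lead peak of each gene, the most covered peak within 1 kb of any of its RefSeq starts. Levels are CPM, a peak's count scaled by the TMM-adjusted total of its library. They are compared between genes per kb of peak width, except where a rank with no scaling by width is named. The mean over the 16 mice at 0 min was 14.2 ± 2.31 CPM per kb (SD, n = 16) for Sesn1, 9.71 ± 1.42 for Errfi1, 9.44 ± 1.21 for Dusp1, 8.26 ± 0.694 for Ddit4, 5.32 ± 0.375 for Cdkn1a and 4.71 ± 0.640 for Tsc22d3. The median lead peak of 12075 protein coding genes was at 5.94 CPM per kb. Sesn1, Errfi1, Dusp1 and Ddit4 lay above this median lead peak before any acute stress, and Cdkn1a and Tsc22d3 below it. Over all 17492 genes with a start, with genes that have no peak ranked lowest (chosen after seeing the data), Tsc22d3 was at the 52.3rd percentile and Cdkn1a at the 58.99th, so both were then above the middle. Among neighbours in this order, Errfi1 and Dusp1 differed by less than the larger SD of the pair, as did Dusp1 and Ddit4, and Cdkn1a and Tsc22d3. Sesn1 and Errfi1 were further apart than either SD, as were Ddit4 and Cdkn1a. Both peaks of a pair were measured in the same 16 libraries and vary together. These SDs therefore do not give the spread of the difference, and whether the order held within each mouse was not tested.

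Ranked among the 12075 lead peaks, Sesn1 was at the 96.2nd percentile (SD of 1.24 over 16 libraries), Errfi1 at the 85.2nd (2.54), Dusp1 at the 83.8th (2.83) and Ddit4 at the 76.95th (2.62). Cdkn1a was at the 40.6th percentile (4.59) and Tsc22d3 at the 30.9th (5.20), and among the 390 lead peaks of the X chromosome Tsc22d3 was at the 40th. Width mattered for this rank. By CPM with no scaling by width, Sesn1 moved to the 65.1st, Errfi1 to the 57.4th, Ddit4 to the 94.9th and Cdkn1a to the 71.4th percentile. Ddit4 had the widest of the 6 lead peaks, 13298 bases that covered the whole gene, and Sesn1 the narrowest at 1794 bases. Start-site peaks are open as a class: against peaks of every kind, the same 6 peaks were at the 92.3rd to 99.7th percentile. Since the tissue was measured in bulk, a lower level from fewer cells with an open site and one from less signal per cell cannot be told apart.

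**Figure D1:**
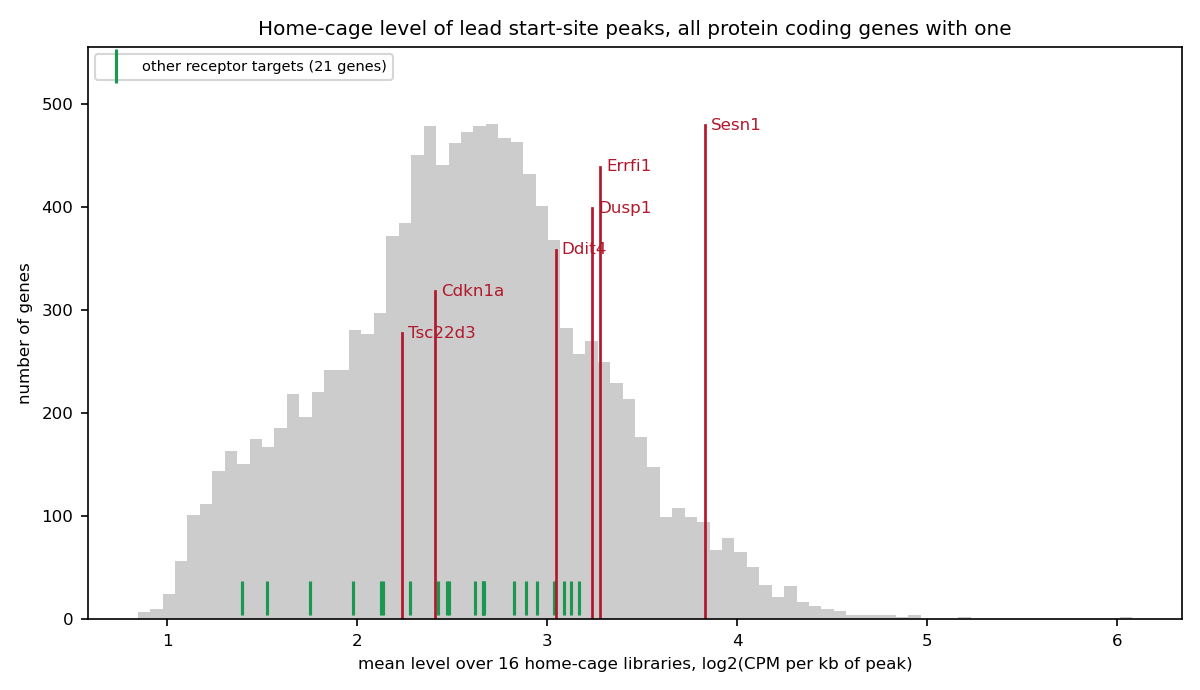
Histogram of the mean home-cage level of lead start-site peaks, as log2 of CPM per kb (x axis), over 12075 protein coding genes (y axis, number of genes). Red lines mark the 6 genes and green ticks 21 other receptor targets: Sesn1, Errfi1, Dusp1 and Ddit4 lie right of the median lead peak, with Sesn1 furthest right, and Cdkn1a and Tsc22d3 left of it.

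The other receptor targets, a list of 26 genes such as Fkbp5, Sgk1 and Per1, give the frame for these levels. Of these, 21 had a RefSeq start in the table and a lead peak, with a median at the 53rd percentile and a range from the 5.59th (Gjb6) to the 81.3rd (Nedd9). Of the 21, 4 were above the 75th percentile, namely Nedd9, Irs2, Per1 and Fkbp5, and of the 6 genes 4 were. By CPM with no scaling by width these counts were 7 of 21 and 2 of 6, and the difference was not tested. Over all 27 lead peaks, the level at 0 min and the fitted log2 change at 45 min had a Spearman rho of -0.62. Without the 6 genes, which were chosen on that change, it was -0.51 over 21, and over all 12075 lead peaks -0.28. Level and change share the same 0 min libraries and the same peaks, so these coefficients are descriptions only.

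Not every annotated start lay inside a peak. The upstream start of Tsc22d3 lay 299 bases outside a small peak of 0.772 CPM, or 3.90 CPM per kb against 4.71 at the lead peak, and its middle start 4929 bases from the nearest peak. The inner start, which lies towards the 3′ end of the gene, held the lead peak (chrX:140541529-140543642). At Cdkn1a, the upstream start with the p53 paired core was 2273 bases from the lead peak (chr17:29093252-29099008), which covered the inner start. Sesn1 had a peak at both starts, 14.2 CPM per kb at the upstream one (chr10:41809086-41810879) and 8.59 at the inner one (chr10:41886809-41889041). The upstream Sesn1 peak also held starts of the neighbouring gene Cep57l1, so its level belongs to both genes. Both Errfi1 starts were in the same peak (chr4:150853720-150855887), and Dusp1 (chr17:26505717-26509924) and Ddit4 (chr10:59941776-59955073) have a single start, each inside its lead peak.

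**Figure D2:**
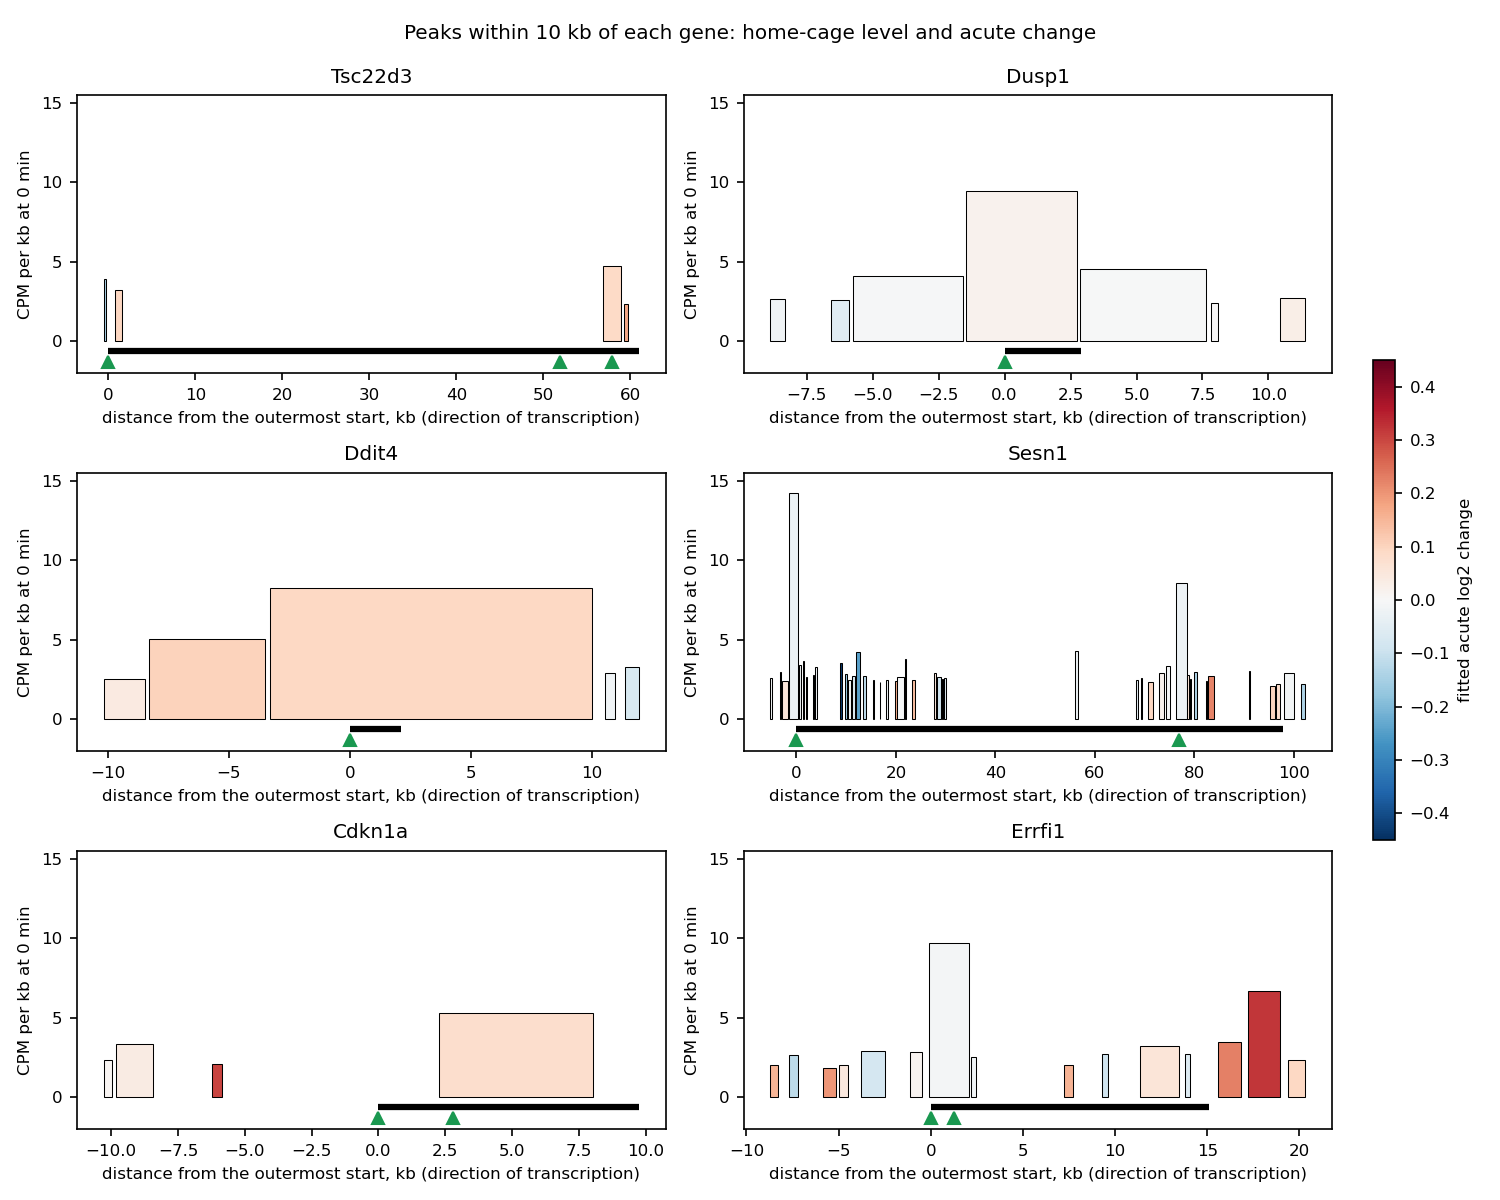
Each box is a peak near one of the 6 genes, placed by distance in kb from the outermost start in the direction of transcription (x axis), with its CPM per kb at 0 min as height and its fitted acute log2 change as colour. Black bars are gene bodies and green triangles RefSeq starts; the start of Cdkn1a at 0 kb and the upstream starts of Tsc22d3 are outside peaks, and the strongest red lies downstream of Errfi1.

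The lead peaks in the 4 groups are given next, starting with the 2 genes that restrain inflammatory and MAP kinase signalling. The Tsc22d3 lead peak had a lowest, median and highest level of 8.03, 10.2 and 13.7 CPM in handled mice at 0 min and of 8.69, 10.9 and 13.0 at 45 min. In chronically restrained mice these were 8.69, 10.0 and 10.5 at 0 min and 9.43, 10.1 and 11.4 at 45 min. All 4 groups overlapped, and the fitted change at 45 min, averaged over both histories, was 0.09 ± 0.06 on the log2 scale (SE). The Dusp1 lead peak ran from 34.96 over 38.5 to 53.7 CPM in handled mice at 0 min and from 38.0 over 40.4 to 45.3 at 45 min. Chronically restrained mice had 34.5, 39.5 and 43.5 CPM at 0 min and 37.2, 38.3 and 41.8 at 45 min. Here too the groups overlapped, the highest value was that of animal 45, and the fitted acute change was 0.02 ± 0.04. The 7 peaks of Dusp1 spanned the narrowest range of acute changes of the 6 genes, from -0.06 to 0.03.

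Ddit4 and Sesn1, the inhibitors of mTORC1, come next, and whether they differed from each other was not tested. At the Ddit4 lead peak, the lowest, median and highest levels were 100.9, 109.5 and 140.1 CPM in handled mice at 0 min and 109.6, 120 and 126.8 at 45 min. Chronically restrained mice had 100.9, 108.6 and 113.2 CPM at 0 min and 109.9, 113.2 and 125.3 at 45 min. The medians were higher at 45 min in both histories, the groups overlapped, and the fitted acute change was 0.09 ± 0.03, or 0.11 ± 0.03 without animal 45. The next peak upstream (chr10:59955264-59960086) had a fitted change of 0.10 ± 0.04. Further out, beyond the 10 kb limit and therefore no members, 2 peaks that flank Ddit4 were among those called higher at 45 min, chr10:59918014-59923887 (0.17) and chr10:59974107-59984791 (0.16). Neither was called without batch 1, 2 or 3 or in either sex alone, and the first also not with RLE size factors or without batch 4. Another flanking peak, chr10:59969524-59971421, was called only in alternative settings (0.20 to 0.23). These were total count scaling, DESeq2, the fits without animal 45 and without batch 4, and the share of counts near gene ends as a covariate.

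At the upstream Sesn1 start, levels were 19.99, 24.9 and 38.1 CPM (lowest, median, highest) in handled mice at 0 min and 22.1, 24.0 and 31.8 at 45 min. In chronically restrained mice they were 22.4, 24.9 and 27.96 CPM at 0 min and 23.2, 24.1 and 26.6 at 45 min. No group stood apart, and the fitted acute change was -0.03 ± 0.06. Within the long Sesn1 body, small peaks leaned both ways. A peak in the gene body with 37.0 counts per library (chr10:41819327-41819627) had the lowest fitted acute change of all 78, -0.44 ± 0.13, with medians of 1.09 CPM at 0 min and 0.661 at 45 min in handled mice. The highest at this gene was 0.22 ± 0.07 (chr10:41893381-41894443). RefSeq exons were not used here, so intron and exon were not separated.

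For the growth and cell cycle inhibitors, Cdkn1a had a lead peak of 27.99, 30.7 and 35.1 CPM (lowest, median, highest) in handled mice at 0 min and 28.8, 33.04 and 36.7 at 45 min. Chronically restrained mice had 26.2, 30.8 and 32.3 CPM at 0 min and 29.1, 31.96 and 34.7 at 45 min. The groups overlapped, and the fitted acute change was 0.08 ± 0.04. A small peak 5870 bases upstream of Cdkn1a (chr17:29084734-29085109), with 34.3 counts per library, had a fitted change of 0.30 ± 0.12. The Errfi1 lead peak had 18.5, 19.7 and 30.8 CPM in handled mice at 0 min and 19.3, 21.6 and 23.1 at 45 min, and in chronically restrained mice 18.5, 20.4 and 23.8 at 0 min and 18.04, 20.0 and 22.6 at 45 min. It showed no group apart from the rest, with a fitted acute change of -0.01 ± 0.05.

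**Figure D3:**
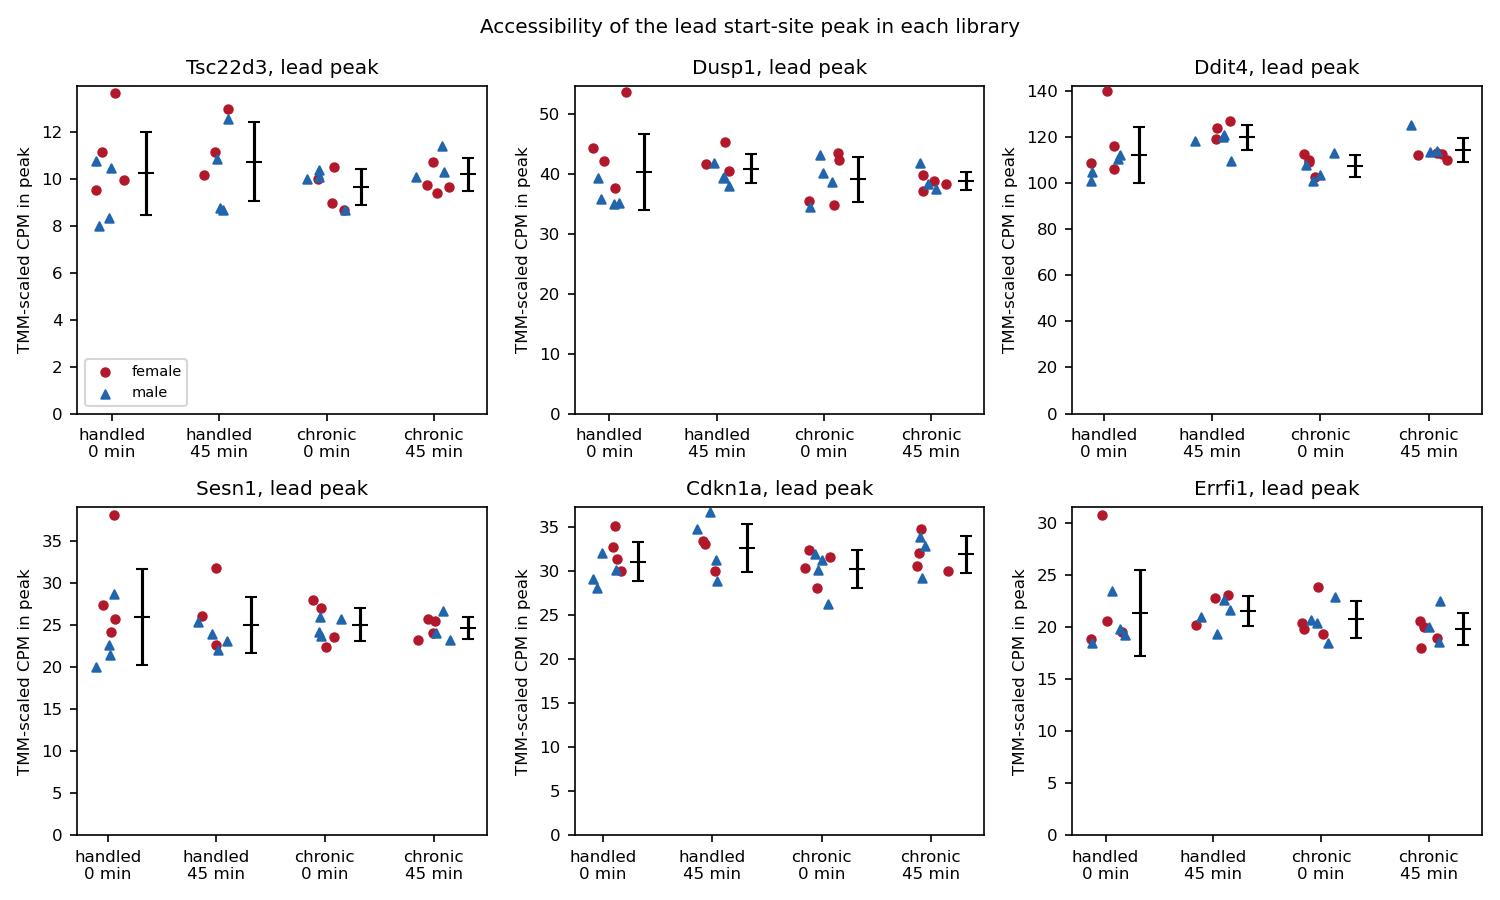
TMM-scaled CPM in the lead start-site peak of each gene (y axis from 0) in every library, by group (x axis), with females as circles, males as triangles and bars for the mean ± SD. The groups overlap in all 6 panels, and the highest handled home-cage point is animal 45 in each of them.

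Errfi1 went against the description of these genes at 1 of its peaks. A peak 2101 bases downstream of the gene (chr4:150870990-150872728), between Errfi1 and Park7, had 10.5, 11.6 and 17.0 CPM (lowest, median, highest) in handled mice at 0 min and 13.4, 14.8 and 16.7 at 45 min. Chronically restrained mice had 8.96, 10.9 and 13.8 CPM at 0 min and 11.5, 14.3 and 16.5 at 45 min. Handled mice at 45 min were all above the handled mice at 0 min except animal 45, and the chronically restrained groups overlapped. Its fitted acute change was 0.32 ± 0.06, and it was 1 of the 299 peaks called by edgeR at an adjusted p under 0.05. Within the 4 batches the change was 0.17, 0.43, 0.43 and 0.24. It was no longer called without batch 2 (0.28), without batch 3 (0.28) or in females alone (0.24), and it was 0.35 without animal 45. An adjacent peak (chr4:150869373-150870611), 484 bases past the gene end, had medians of 4.15 CPM at 0 min and 4.93 at 45 min in handled mice, 4.24 and 5.07 in chronically restrained mice, and a fitted change of 0.23 ± 0.07.

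In all, 1 of the 78 peaks (1.28%) was called for the averaged acute effect, against 0.116% of all 257143 tested peaks in either direction and 0.0731% called higher. Because this contrast chose the genes, nothing is read from that share. The median fitted acute change was 0.006 over the 78 peaks, of which 51.3% were positive. Over all tested peaks the median was -0.0025 and 49% were positive, and over the 387 peaks of the other receptor targets the median was 0.08 with 80.6% positive and 19 called, all higher. Handled mice gave 0 called of 78 (0.0109% of all peaks) and chronically restrained mice also 0 (0.00272% of all peaks) in edgeR and DESeq2, from which likewise nothing is read. Without animal 45 the fitted acute changes at the lead peaks were 0.11 for Tsc22d3, 0.04 for Dusp1, 0.11 for Ddit4, 0.006 for Sesn1, 0.09 for Cdkn1a and 0.02 for Errfi1, so those of Sesn1 and Errfi1 changed sign. Without this animal 3 of the 78 peaks were called (0.265% of all peaks): the downstream Errfi1 peak, its neighbour and the Ddit4 lead peak. With the share of counts near gene ends as a covariate, 4 of 78 were called (0.685% of all peaks): these 3 and the low Sesn1 peak at chr10:41819327-41819627. More peaks were thus called over the genome in both settings, and nothing is read from these counts either. The share of counts near gene ends had a median of 38.4% in handled mice at 0 min and 39.2% at 45 min, and 38.7% in both chronically restrained groups.

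**Figure D4:**
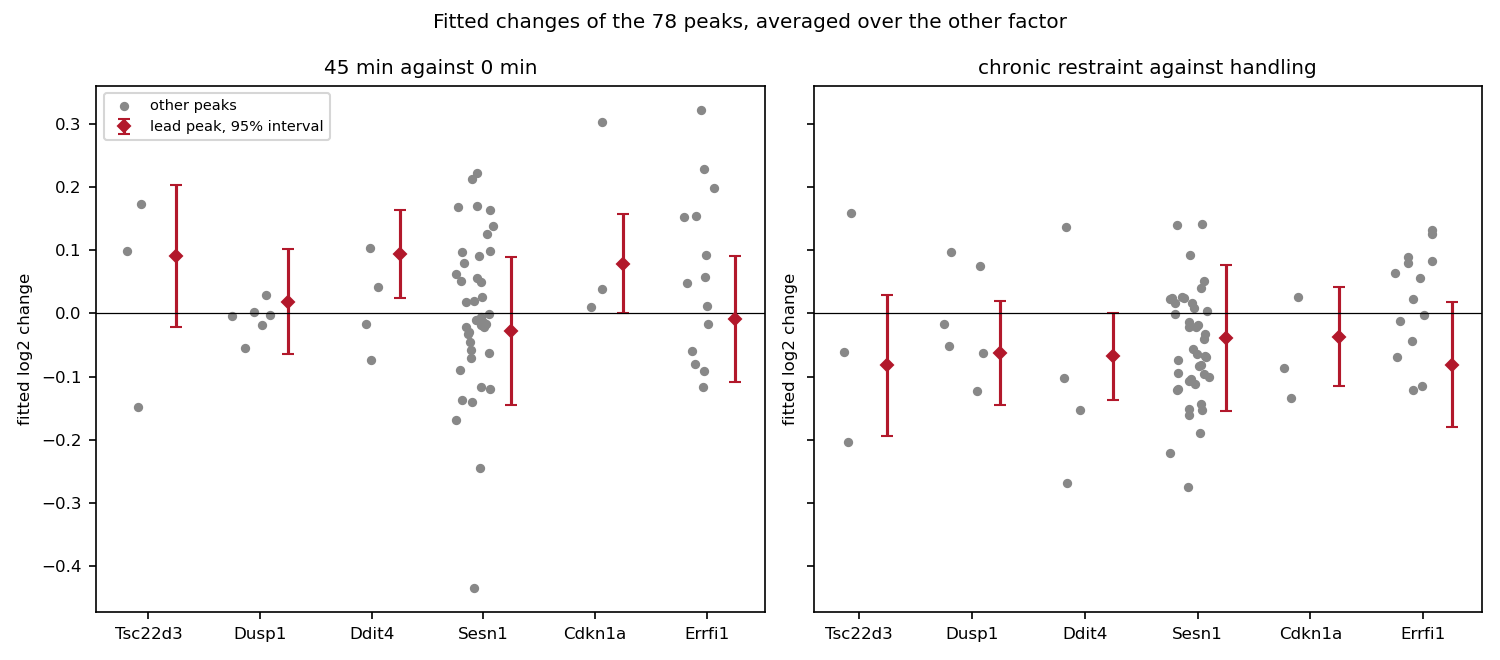
Fitted log2 changes (y axis) of the 78 peaks by gene (x axis), for 45 min against 0 min (left) and chronic restraint against handling (right), each averaged over the other factor. Grey points are other peaks and red diamonds the lead peaks with 95% intervals; the downstream Errfi1 peak is at 0.32 and a Sesn1 peak at -0.44.

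A history of chronic restraint had played no part in choosing the genes, so its effect was tested. No member peak passed in edgeR at 0 min, at 45 min or averaged over both times, and DESeq2 called 0 of 78 in each as well. Across all tested peaks edgeR called 0 (0% of 257143) in each of these comparisons. At an unadjusted p under 0.05, 4 member peaks were found at 0 min (5.13%, against 4.6% of all peaks), 1 at 45 min (1.28% against 3.78%) and 5 averaged (6.41% against 5.44%). The smallest adjusted p in edgeR was 0.901. The fitted averaged effect of chronic restraint at the lead peaks was -0.08 for Tsc22d3 (95% interval -0.19 to 0.03), -0.06 for Dusp1 (-0.14 to 0.02) and -0.07 for Ddit4 (-0.14 to 0.0009). For Sesn1 it was -0.04 (-0.16 to 0.08), for Cdkn1a -0.04 (-0.11 to 0.04) and for Errfi1 -0.08 (-0.18 to 0.02). Each of the 6 intervals included 0. Without animal 45 the values were nearer 0 at 5 lead peaks, at -0.052 for Tsc22d3, -0.031 for Dusp1, -0.039 for Ddit4, -0.026 for Cdkn1a and -0.033 for Errfi1, and Sesn1 was at 0.0092. In females alone, which hold that animal, they were -0.24, -0.19, -0.14, -0.18, -0.055 and -0.18 for Tsc22d3, Dusp1, Ddit4, Sesn1, Cdkn1a and Errfi1. In males alone they were 0.065, 0.048, -0.0088, 0.075, -0.0079 and -0.019 in that order. None of these passed in edgeR, and the difference between the sexes was not tested.

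Peaks of Ddit4 had the 2 smallest p-values for averaged chronic restraint, and neither passed. Its upstream peak at chr10:59955264-59960086 had medians of 25.7 CPM in handled and 23.6 in chronically restrained mice at 0 min, and 26.5 and 25.4 at 45 min. The groups overlapped, and the averaged effect was -0.10 ± 0.04 (edgeR adjusted p = 0.901). The values were -0.15 ± 0.06 at a peak further upstream (chr10:59960224-59961927; adjusted p = 0.912) and -0.27 ± 0.11 at one downstream (chr10:59940823-59941249; adjusted p = 0.904, edgeR). The inner start of Sesn1 had -0.11 ± 0.05 (edgeR adjusted p = 0.912). Over the 78 peaks the median was -0.048 with 33.3% positive, and over all peaks -0.0049 with 48% positive. Peaks of 1 gene are not independent of each other, so this count describes the loci and is not a test. Without animal 45 the median was -0.03.

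The interaction asked whether the change at 45 min differed between histories. No member peak passed (edgeR and DESeq2, 0 of 78; edgeR called 0 of all peaks), and 1 had an unadjusted p under 0.05 (1.28%, against 3.03% of all peaks). It was a low Sesn1 peak (chr10:41906874-41907809) whose medians were 2.17 and 1.93 CPM at 0 and 45 min in handled mice and 1.78 and 2.19 in chronically restrained mice, with an interaction of 0.39 ± 0.17 and an edgeR adjusted p of 1. At the downstream Errfi1 peak the acute change was 0.34 ± 0.08 in handled and 0.30 ± 0.08 in chronically restrained mice, and the interaction was -0.04 with a 95% interval from -0.27 to 0.20. The interactions of the lead peaks ranged from -0.08 (Errfi1) to 0.01 (Sesn1), with standard errors of 0.069 (Ddit4) to 0.115 (Sesn1). Animal 45 moved these values. Without it 4 member peaks had an unadjusted p under 0.05 and 0 passed in edgeR. Of these 4, the Errfi1 lead peak was at -0.17 (95% interval -0.32 to -0.017, edgeR adjusted p = 1). The Dusp1 lead peak was at -0.099 and that of Sesn1 at -0.075, with the sign turned. At the downstream Errfi1 peak the acute changes were then 0.41 in handled and 0.30 in chronically restrained mice, and the interaction was -0.11 (-0.30 to 0.069).

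Sex separated 1 member peak, at the X-linked gene Tsc22d3. The peak lies 817 bases inside the gene from the upstream start (chrX:140598919-140599705). Its lowest, median and highest levels were 2.24, 2.94 and 3.67 CPM in the 15 females and 1.45, 2.31 and 3.08 in the 15 males. The sexes overlapped, the female median was the higher one, and the fitted difference was 0.41 ± 0.08 on the log2 scale higher in females (edgeR adjusted p = 0.0181). Of all tested peaks 0.035% were called for sex, and of 2026 X chromosome peaks 4.05% were called higher in females, so the background was higher on this chromosome than over the genome. The difference was 0.36 to 0.47 without each batch in turn and 0.35 with the gene-end share as a covariate, and passed in none of these. The Tsc22d3 lead peak did not pass, at 0.06 ± 0.06 (95% interval -0.05 to 0.18), and neither did any peak of the 5 autosomal genes.

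**Figure D5:**
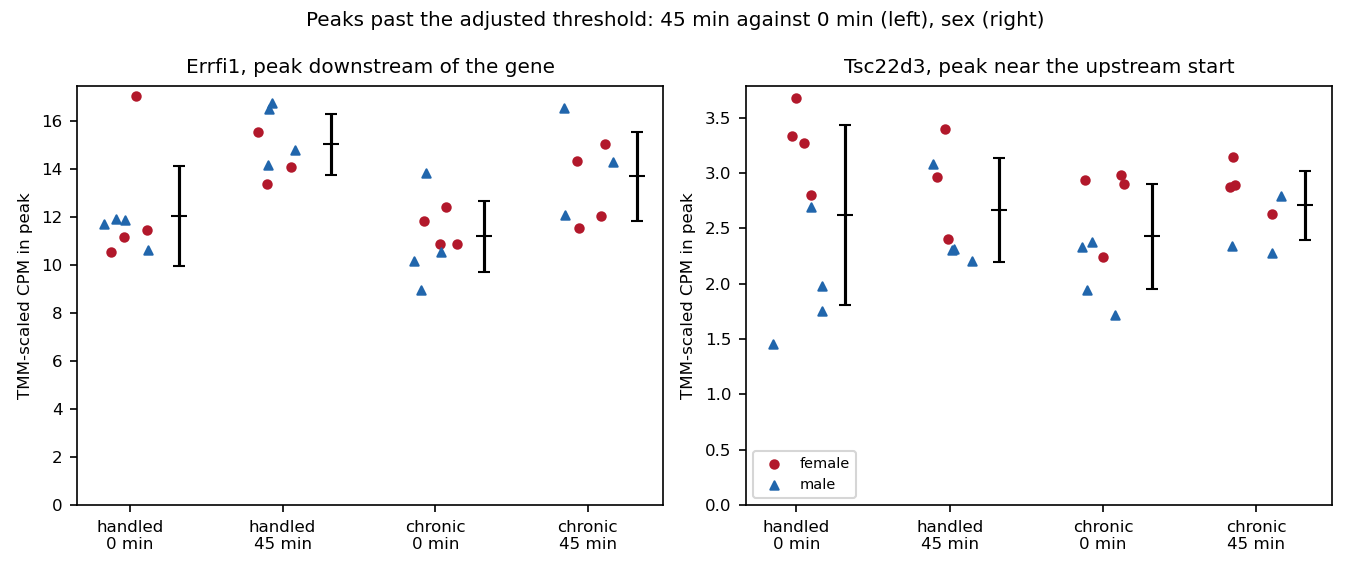
TMM-scaled CPM (y axis from 0) in every library by group (x axis) for the peak downstream of Errfi1 (left) and the Tsc22d3 peak near its upstream start (right), with females as circles, males as triangles and bars for the mean ± SD. Most 45 min points lie above the 0 min points on the left, with animal 45 as the highest handled home-cage point, and circles lie mostly above triangles on the right.

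Genes related to these 6 by function gave the wider pathway. No peak was called for the averaged acute effect among 83 peaks of 9 other MAP kinase phosphatases, 113 peaks of 8 paralogs such as Sesn2 and Cdkn1b, 93 peaks of 10 p53 targets, 42 peaks of the 4 ErbB receptors, the partners of Errfi1, or 414 peaks of 12 mTORC1 partners such as Tsc1, Rheb and Mios. With 0.116% of all peaks called, counts of 0 in lists of this size are near the background and show nothing particular to them. Their median acute changes were 0.0075, -0.0033, -0.0064, -0.0039 and 0.012 on the log2 scale, in that order, where the other receptor targets had 0.08. In the home cage, the 10 mTORC1 partners with a lead peak had a median at the 74.7th percentile (range 37.6th to 95.4th). Rheb, the activator of mTORC1, was the highest of these. The 5 paralogs with a lead peak had a median at the 80.8th (18.2nd to 93.3rd), and 8 p53 targets at the 63.5th (18.9th to 76.1st). The ErbB receptors Egfr, Erbb2 and Erbb4 were lower, from the 7.51st to the 13.8th percentile, and the MAP kinase phosphatases spread from the 14.6th (Dusp2) to the 85.3rd (Dusp10).

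Variation between mice within groups was compared with that at the lead peaks of other genes. After group, sex and batch were removed, the lead peak most like that of Ddit4 over the 30 libraries, among 10756 lead peaks, was the one shared by Gm21992 and Rbm14 (Pearson r = 0.975 across libraries), followed by Gpbp1l1 with Tmem69 (0.969) and Odr4 with Tpr (0.965). For Sesn1 the closest were Cers5 (0.947), H2ac19 with H3c15 (0.945) and Mef2d (0.943), for Dusp1 Fam102a (0.944), Gtf2b (0.928) and Lrrc8a (0.916), and for Errfi1 Klf13 (0.938), Arhgap21 (0.926) and Ro60 with Uchl5 (0.921). Tsc22d3 was closest to Ube2l6 (0.869), Gga3 with Mrps7 (0.865) and Abtb2 (0.847), and Cdkn1a to Lor (0.817), Sucla2 (0.806) and Nt5c (0.803). Among themselves the 6 lead peaks had r from 0.538 to 0.894. All points share library and depth, and no p is given. Only the highest r of each gene are named, so they do not show how widely this variation was shared. Animal 45 was included, and r without it was not computed.

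The edge of the 10 kb window fell in gaps between peaks at most of these genes. The nearest peak outside it was 10156 bases from Ddit4 (acute log2 change 0.09 ± 0.06) and 11698 bases from Cdkn1a (-0.08 ± 0.08), and the outermost members were 9252 bases (-0.07 ± 0.09) and 9964 bases (0.01 ± 0.13) away. At Tsc22d3 the outermost member was 299 bases from the gene and the next peak 18838 bases away, with an acute change of 0.18 ± 0.08.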

How the data were processed

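ATAC-seq of nuclei from the ventral hippocampus of 30 mice, each library from a separate animal number, was analysed from 1 count table. The deposited counts are whole numbers per peak region for 1 set of regions. Per the submitters' processing notes, Trimmomatic, Bowtie2, Picard, Genrich 0.6.1 and GRCm38 were used. How regions were combined and whether reads or fragments were counted is not given in the sources used here. The table held 2 columns that matched no sample and were not used. Genes and starts came from RefSeq tables (GRCm38.p6); 17492 protein coding genes had a start, and 69.0% of these a peak within 1 kb.

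All peaks were fitted together in edgeR 4.0.16 (R 4.3.3): filterByExpr (6 peaks removed), TMM scaling, 4 groups, sex and batch, robust quasi-likelihood F-tests, Benjamini-Hochberg adjustment over 257143 peaks and a threshold of 0.05. The fit was tested on simulated data. Alternatives covered scaling, filter, DESeq2 1.42.0, covariates, single libraries, batches, sexes and windows. P-values weigh a fitted difference against the spread between libraries of separate animals, which also holds technical differences.

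The genes, lists and tests were chosen with earlier results of these data known. Named peaks are the lead peak, the most covered other peak, the highest and lowest acute change among peaks with a mean count of at least 20, the smallest p in each tested comparison and each peak that passed; those that carry a result are printed. Other peaks named, such as those past the 10 kb limit, were picked after their values were seen. The member peaks had a mean of 18 to 4478 counts per library, which limits the precision at the small peaks.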

Additional observations from a re-analysis of the deposited data

Results flagged for a closer look

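In 5 of the 32 sets of libraries examined (8 peaks in 4 groups), 1 library lay further from the others than Dixon's 95% limit allows. For a single set, chance gives about 1 in 20. The 8 peaks were read in the same libraries, so the sets are not independent and the count is not weighed against that rate. Animal 45, a handled female at 0 min, was the high one in 3 of the 5 sets. It had 140.09 CPM at the Ddit4 lead peak, where the other handled home-cage mice had 100.91 to 115.9. At the Errfi1 lead peak it had 30.837 CPM against 18.496 to 23.438, and at the peak downstream of Errfi1 17.041 CPM against 10.534 to 11.909. Animal 66, a chronically restrained mouse at 45 min, had 125.31 CPM at the Ddit4 lead peak, and the rest of its group 109.85 to 113.88. Animal 1, handled and at 45 min, had 31.847 CPM at the upstream Sesn1 start against 22.067 to 26.094.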

How the results depend on the processing

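Of the 78 peaks, 1 was called for the change at 45 min averaged over histories. This became 4 with the gene-end share as a covariate, 3 when animal 45 was left out, 0 in females alone, and 0 without batch 2 and 0 without batch 3; it was 0 of 51 peaks with no extension of the gene body and 3 of 170 with 50 kb. Percentages in brackets are the shares of all tested peaks called in the same fit. In handled mice it was 0 (0.0109%). It was 1 there with total count scaling (0.0249%), without animal 45 (0.042%), without batch 4 (0.0206%) or with the gene-end share (0.153%). In chronically restrained mice it was 0 (0.00272%), and 1 with the gene-end share (0.0327%). For sex it was 1 (0.035%). It was 0 for sex without batch 1 (0.0264%), without batch 2 (0.0218%), without batch 3 (0.0311%), without batch 4 (0.0362%) or with the gene-end share (0.0424%). The cause of these moves was not tested. Over all peaks, the averaged acute calls numbered 299 (62.9% higher), 525 by total count scaling (53.3% higher), 681 without animal 45, 40 without batch 2, 20 in females alone, 105 in males alone and 1762 with the gene-end share (37.2% higher).

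The fitted chronic change at a lead peak changed sign in males alone for Tsc22d3 (0.065), Dusp1 (0.048) and Sesn1 (0.075), and for Sesn1 also without animal 45 (0.0092), without batch 1 (0.0019) and with the gene-end share (0.012); none passed in any setting.

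The home-cage percentile moved by more than its spread in these cases. With no scaling by width it was 79.2 for Dusp1, 94.9 for Ddit4, 65.06 for Sesn1, 71.4 for Cdkn1a and 57.45 for Errfi1. Among lead peaks of 0.5 to 2 times the width it was 25.2 for Tsc22d3, 79.5 for Dusp1, 90.8 for Ddit4, 94.2 for Sesn1, 34.4 for Cdkn1a and 78.3 for Errfi1. With genes that have no peak ranked lowest, an alternative chosen after seeing the data, it was 52.3 for Tsc22d3, 88.8 for Dusp1, 84.1 for Ddit4, 58.99 for Cdkn1a and 89.8 for Errfi1. No paired analysis was possible because each animal number occurs once and the groups share none.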
